A study of Mus musculus with 4 samples.

Results

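Chemokines are small secreted proteins that draw cells along concentration gradients through G protein-coupled receptors. They are grouped by the spacing of their first cysteines into CC, CXC and CX3C families. Ccl2 and Ccl7 attract monocytes, Cxcl1 and Cxcl5 attract neutrophils, Ccl5 and Cxcl10 attract T cells and follow inflammatory and interferon signals, Cxcl12 guides stem and progenitor cells through Cxcr4, and Cx3cl1 is made as a membrane-bound protein. Fibroblasts, the usual feeder cells of embryonic stem (ES) cell cultures, are a known source of several of them. The 8 genes were taken by name, and every probe set that the platform annotation assigns to exactly 1 of them was kept. This gave 15 of the 45101 probe sets on the array, 3 for Cxcl1, 3 for Cxcl12, 4 for Cx3cl1 and 1 for each of the other 5 genes, and 8 of 18193 genes.

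The study measured RNA of mouse ES cells with and without Snai1, the gene of the transcriptional repressor Snail, on 4 Affymetrix arrays labelled from the 3' end of the RNA. The knockout group holds 2 arrays titled KO.ES. The control group holds 2 arrays titled F/F.ES, an abbreviation the labels do not explain, with genotype "control" but the words knock out in the source name. Both groups were grown with leukaemia inhibitory factor, which keeps ES cells self-renewing, and with feeder cells of unstated kind. The sources used here do not state the strain, the method of deletion or the number of ES clones. What separated the 2 biological replicates of a group is not stated either, so the p-values cover only the spread between these samples, which may be technical. In such mixed cultures, fewer cells of a type and less RNA per cell cannot be told apart.

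The values are log2 expression per probe set, with array medians of 4.91 to 4.95. The number of arrays limits the precision. Bacillus transcripts, which mouse RNA should not bind, gave a background range of 2.91 to 4.77 over 27 control probe sets, with a median of 3.27. The upper end is the single highest control value, so a level within the range is not shown to be absent. Snai1 itself lay within that range, at 3.79 and 4.04 in the knockout and at 4.41 and 4.69 in the control, and whether its probe set covers the deleted part is not stated, so it does not check the labels. The ES cell label was borne out by its markers, since all 12 measured ES cell markers lay above the background range on every array. Of these, 4 (Utf1, Esrrb, Nanog and Pou5f1) were higher in the knockout and none was lower, beside 1.98% of all genes called higher and 2.17% called lower, and 0 to 1 passed with any 1 array left out. With every probe set tested singly, the brightest set of Utf1 still passed (limma adjusted p = 0.0293). Those of Esrrb (0.0717), Nanog (0.0566) and Pou5f1 (0.0559) did not. A sign of RNA quality differed between the groups: the 3' probe set of Actb, beta-actin, exceeded the 5' probe set by 1.11 and 0.80 on the knockout arrays and by 3.02 and 2.97 on the control arrays. For Gapdh, a glycolytic enzyme, the mean gap was 0.34 in the knockout and 1.36 in the control. The part of this gap in the differences below was not tested, beyond removal of a trend with gene span and mean level.

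Of the 8 chemokine genes, Ccl2 was higher in the knockout and lay above background on every array. Cxcl5 passed the test in the lower direction, but with all 4 values within the background range. The other 6 did not pass. The test was limma over all genes, with 1 probe set per gene (the brightest on average) and Benjamini-Hochberg adjusted p under 0.05 as the threshold. It called 4.14% of all 18193 genes, 360 higher and 394 lower. This split depended on the setting: it was 224 higher and 97 lower with the probe sets of each gene averaged, and 46 higher and 4 lower without control replicate 1. The median log2 difference over the 8 genes was 0.16, beside -0.02 over all genes, and the median size of the difference was 0.22, beside 0.18. When all 45037 probe sets other than Affymetrix controls were tested singly, 0.546% passed (198 higher, 48 lower) and none of the 15 chemokine probe sets did. At an unadjusted p under 0.05, 3 of the 15 were counted, those of Ccl2 and Cxcl5 and 1 of Cxcl12, beside 19.5% of all probe sets. In the gene fit, 23.9% of all genes had an unadjusted p under 0.05, and the unadjusted counts given below for gene lists are to be read against that share. The calls for Ccl2 and Cxcl5 therefore depended on testing 1 probe set per gene.

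**Figure D1:**
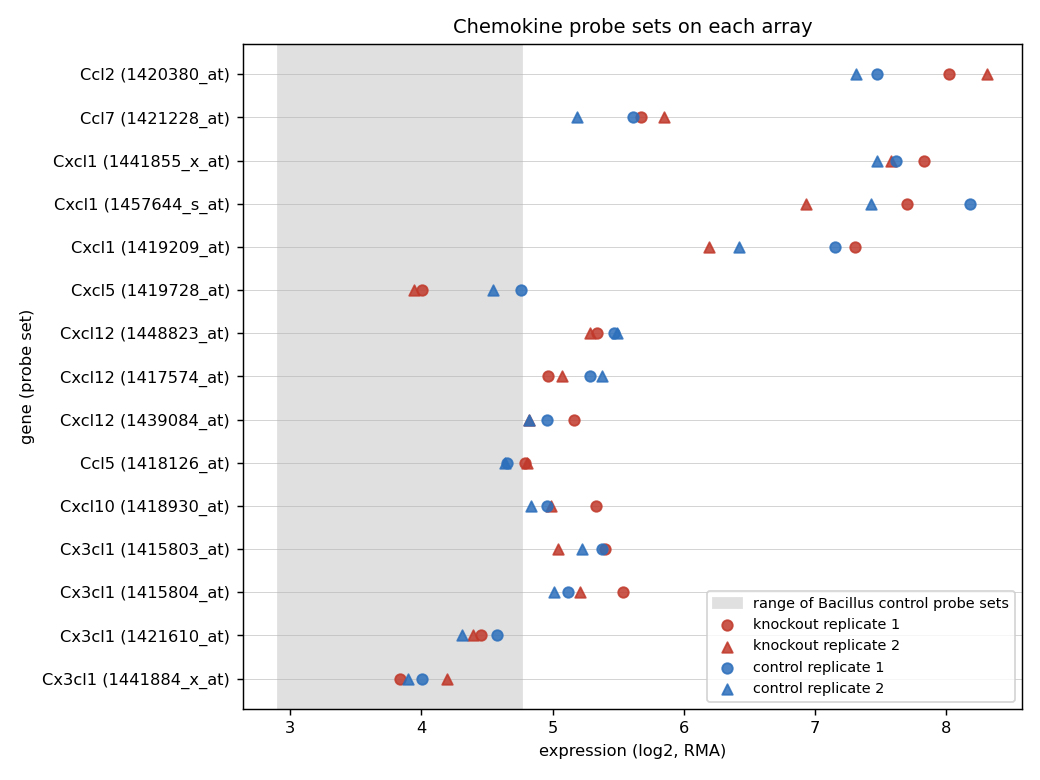
Log2 expression of the 15 chemokine probe sets (rows) on each of the 4 arrays, knockout in red and control in blue, replicate 1 as circles and replicate 2 as triangles; the grey band is the background range of 2.91 to 4.77. Both knockout arrays lie above both control arrays for Ccl2, Cxcl5 lies wholly inside the band, and both replicate 1 arrays lie above both replicate 2 arrays on all 3 Cxcl1 probe sets.

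Ccl2, the monocyte attractant also known as MCP-1, was at 8.02 and 8.31 in knockout replicates 1 and 2 and at 7.48 and 7.31 in control replicates 1 and 2. Both knockout arrays were higher than both control arrays, and all 4 lay well above the background range. The group means of 8.17 ± 0.21 and 7.39 ± 0.12 (SD, n = 2 each) differed by 0.77 ± 0.16 (log2, SE), a 1.71-fold difference with a 95% interval of 0.41 to 1.14 on the log2 scale (limma adjusted p = 0.0456). Replicate 1 minus replicate 2 was -0.29 in the knockout and 0.16 in the control. The group difference thus exceeded both replicate differences, as it did for 4 of the 8 chemokine genes and for 40.4% of all genes. Within a replicate number the knockout exceeded the control by 0.55 (replicate 1) and by 1.003 (replicate 2).

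The call for Ccl2 lay close to the threshold and rested on every array. The adjusted p was between 0.0708 and 0.182 with any 1 array left out, while the difference stayed between 0.63 and 0.92. With Ccl2 tested among all probe sets singly, its adjusted p was 0.0733. With the dependence on gene span and on mean level taken out of each array, the difference was 0.56 ± 0.15 (SE, adjusted p = 0.0895).

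Ccl7, or MCP-3, shares the receptor Ccr2 with Ccl2 and is its neighbour in the genome, with no other protein-coding gene between them in the RefSeq gene table (GRCm38.p6). Its single probe set was at 5.67 and 5.85 in the knockout and at 5.61 and 5.18 in the control arrays. The groups did not overlap, but knockout replicate 1 and control replicate 1 were 0.06 apart. The difference of 0.36 ± 0.18 (SE, 95% interval -0.05 to 0.78) did not pass (adjusted p = 0.271). It was smaller than the difference of 0.43 between the control replicates. The pair shared an ordering of the arrays: for both genes the highest was knockout replicate 2, followed by knockout replicate 1, control replicate 1 and control replicate 2. How many of all genes have this order was not counted, so the shared order is a description only. Groups that do not overlap were found for 6 of the 8 chemokine genes, against 52.3% of all genes.

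Ccl11, Ccl8 and Ccl12 of the same cluster did not follow this order. Ccl11, the eosinophil attractant eotaxin and the next gene after Ccl7, was at 3.72 and 3.94 in the knockout and at 4.03 and 4.04 in the control, within the background range. Ccl8, or MCP-2, was at 5.25 and 5.31 in the knockout and at 5.39 and 5.46 in the control. Its difference was -0.15 ± 0.13 (SE, adjusted p = 0.572). Ccl12, or MCP-5, lay within the background range on every array, between 3.34 and 3.49.

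Cxcl1, a neutrophil attractant known as KC, had 3 probe sets that did not give the same picture. The brightest, 1441855_x_at, was at 7.83 and 7.58 in the knockout and at 7.62 and 7.47 in the control. These groups overlapped, and the difference was 0.16 ± 0.15 (SE, 95% interval -0.19 to 0.51, adjusted p = 0.597). By the maker's naming, the suffix x marks a set with some probes that match other sequences too. The set 1457644_s_at was at 7.70 and 6.93 in the knockout and at 8.19 and 7.43 in the control, where the knockout array was lower within each replicate number, by -0.49 and -0.50. The set 1419209_at, at 7.31 and 6.19 in the knockout and at 7.15 and 6.42 in the control, gave a group difference of -0.04 ± 0.40 (SE, 95% interval -1.01 to 0.94).

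The clearest pattern in Cxcl1 was by replicate number rather than by genotype. Replicate 1 exceeded replicate 2 by 1.11 in the knockout and 0.73 in the control on 1419209_at. On 1457644_s_at the excess was 0.77 and 0.76. On the brightest set the excess was 0.25 and 0.14. The mean of all 3 sets turned the sign of the Cxcl1 difference, to -0.12 ± 0.27 (SE, adjusted p = 0.866), so no direction between genotypes can be given for Cxcl1.

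**Figure D2:**
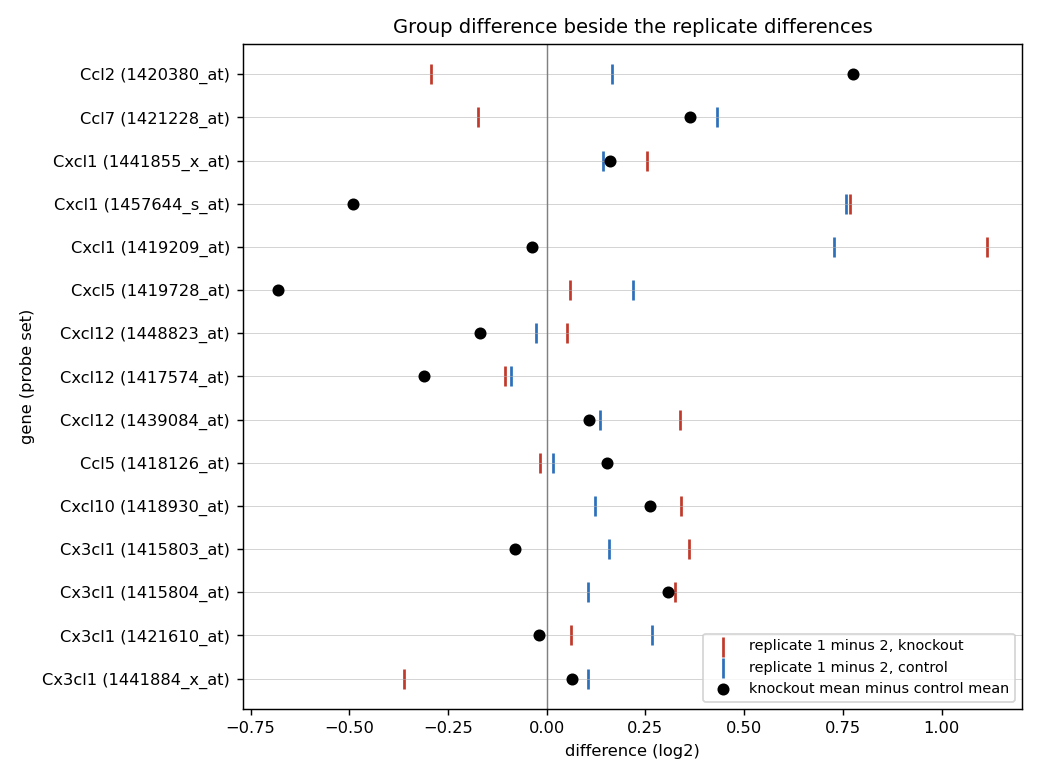
For each chemokine probe set, the knockout mean minus the control mean (black points) and replicate 1 minus replicate 2 inside the knockout (red bars) and inside the control (blue bars), all in log2 units. The black point lies farther from 0 than both bars for Ccl2, Cxcl5, Ccl5 and 2 Cxcl12 sets, while the bars reach 1.11 for Cxcl1.

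The promoters of Cxcl1 and Cxcl10 are shown because they carry a pattern bound by NF-kB, the transcription factor through which inflammatory signals act on many chemokine genes. RefSeq promoters (GRCm38.p6) were found for 4 of the 8 genes, Cxcl1, Cxcl10, Cxcl12 and Cx3cl1. The 250 bases before each start were searched on both strands for GGANTTNCC (the core of an NF-kB site, in 3.151% of 32851 promoters), GAAANNGAA (the core of an interferon response element, in 7.129%) and CAGGTG (the E-box that Snail binds, in 17.22%). The patterns were chosen with these sequences in view, and no matches overlapped. Capitals mark the matches below. The Cxcl1 promoter lies at chr5:90890995-90891244 on the plus strand, and the Cxcl10 promoter at chr5:92348890-92349139 on the minus strand.
Cxcl1: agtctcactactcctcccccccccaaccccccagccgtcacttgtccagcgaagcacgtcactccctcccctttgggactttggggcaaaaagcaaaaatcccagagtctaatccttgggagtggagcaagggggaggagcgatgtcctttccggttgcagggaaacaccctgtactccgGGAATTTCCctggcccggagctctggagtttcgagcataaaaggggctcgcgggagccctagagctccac
Cxcl10: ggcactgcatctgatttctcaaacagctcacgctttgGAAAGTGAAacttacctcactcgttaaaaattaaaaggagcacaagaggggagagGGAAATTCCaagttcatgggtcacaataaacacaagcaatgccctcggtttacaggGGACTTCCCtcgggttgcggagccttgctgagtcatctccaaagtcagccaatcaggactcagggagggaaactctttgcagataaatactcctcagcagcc

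In the Cxcl1 promoter, the NF-kB letters occurred at 70 to 62 bases before the start on the gene's strand. In the Cxcl10 promoter they occurred at 102 to 94 bases before the start on the gene's strand and at 158 to 150 bases before it on the opposite strand, and the interferon letters occurred at 213 to 205 bases before it. The windows of Cxcl12 and Cx3cl1 held neither pattern, and none of the 4 windows held CAGGTG. These matches describe the letters only, and nothing about binding was measured.

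Cxcl5, another neutrophil attractant, was the member that passed in the lower direction. Its single probe set was at 4.0003 and 3.94 in the knockout and at 4.76 and 4.54 in the control arrays. Both knockout arrays were lower than both control arrays, yet all 4 values lay within the background range, so no fold is given. The fitted difference was -0.68 ± 0.14 (log2, SE, limma adjusted p = 0.0487), beyond the replicate differences of 0.06 in the knockout and 0.22 in the control. The adjusted p was between 0.0961 and 0.180 with any 1 array left out, and 0.0745 with all probe sets tested singly. In the gene table, Cxcl5, Ppbp, Pf4, Cxcl3, Cxcl15, Cxcl1 and Cxcl2 form a cluster of CXC genes. Ppbp, Cxcl3, Cxcl15 and Cxcl2 of this cluster also lay within the background range on every array, whereas Pf4 lay just above it, between 4.89 and 5.002.

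**Figure D3:**
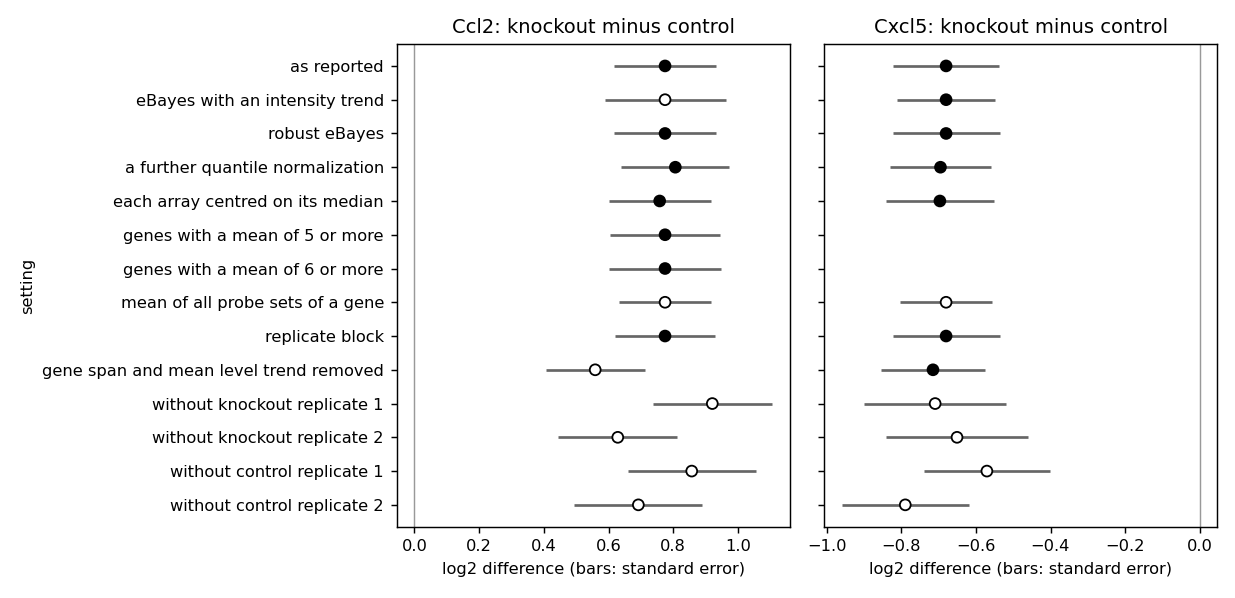
Knockout minus control (log2) for Ccl2 and Cxcl5 under each processing setting, with bars of 1 standard error; filled points have an adjusted p under 0.05 and open points do not. The Ccl2 difference stays above 0 and the Cxcl5 difference below 0 in each setting run, while all 4 settings with an array left out are open for both genes; Cxcl5 has no point where dim genes were removed.

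Cxcl12, the ligand of Cxcr4 and Ackr3, lay just above background. Its brightest probe set was at 5.34 and 5.29 in the knockout and at 5.47 and 5.49 in the control. The knockout arrays were lower without overlap, but the difference of -0.17 ± 0.13 (SE, 95% interval -0.47 to 0.14) did not pass (adjusted p = 0.508). The second set, 1417574_at, was at 4.97 and 5.07 in the knockout and at 5.29 and 5.38 in the control. It was lower in the knockout by -0.31 ± 0.13 (SE) and did not pass either (adjusted p = 0.255 in the fit of all probe sets). The third set, 1439084_at, overlapped between the groups, at 5.16 and 4.82 in the knockout and at 4.95 and 4.82 in the control.

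Ccl5 and Cxcl10, the ligands tied to T cells and interferon, were both close to the background range. Ccl5 was at 4.79 and 4.81 in the knockout and at 4.66 and 4.64 in the control, so only its knockout arrays lay above that range, by a small margin. Its difference of 0.15 ± 0.13 (SE, 95% interval -0.15 to 0.46) did not pass (adjusted p = 0.556). Cxcl10 was at 5.33 and 4.99 in the knockout and at 4.96 and 4.84 in the control. The groups did not overlap, with knockout replicate 2 only just above control replicate 1, and the difference of 0.26 ± 0.16 (SE, 95% interval -0.11 to 0.64) did not pass (adjusted p = 0.385). It was smaller than the difference of 0.34 between the knockout replicates.

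Cx3cl1, or fractalkine, had 4 probe sets, of which 2 lay above and 2 within the background range on every array. The brightest, 1415803_at, was at 5.40 and 5.04 in the knockout and at 5.38 and 5.22 in the control, with overlapping groups and a difference of -0.08 ± 0.17 (SE, 95% interval -0.47 to 0.31, adjusted p = 0.836). The second, 1415804_at, was at 5.54 and 5.21 in the knockout and at 5.12 and 5.01 in the control. Here the knockout arrays were higher without overlap, by 0.31 ± 0.16 (SE, adjusted p = 0.354 in the fit of all probe sets). The 2 brighter sets of Cx3cl1 thus had opposite signs, and neither difference passed.

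Markers of feeder fibroblasts differed more by replicate number than by genotype. The mean level of 23 measured markers was 8.07 in knockout replicate 1, 7.38 in knockout replicate 2, 8.25 in control replicate 1 and 7.57 in control replicate 2, and single levels ran from 4.19 to 11.85. Replicate 1 was higher in both groups for 18 of the 23 markers, against 24.5% of all genes, and none of the 23 passed between genotypes (4.14% of all genes did), with 2 at an unadjusted p under 0.05. With the replicate number as a block, 9 of the 23 passed, 1 higher and 8 lower in the knockout. That count is to be read against the same block fit, which called 3092 of all 18193 genes, 1200 higher and 1892 lower. The marker mean was lower in the knockout within both replicate numbers. The largest difference between genotypes was that of Prrx1, a mesenchymal transcription factor, at 6.83 and 6.09 in the knockout and at 8.02 and 7.39 in the control (-1.24 ± 0.28, SE, adjusted p = 0.0549). The defining collagens and other markers were far from absent, since 21 of the 23 lay above the background range on every array. Cxcl1 ordered the replicates as these markers did on all 3 of its probe sets. Ccl2 and Ccl7 did so only in the control, where replicate 1 was higher by 0.16 and 0.43. In the knockout, replicate 1 minus replicate 2 was -0.29 for Ccl2 and -0.18 for Ccl7. Of the 15 chemokine probe sets, 9 were higher in replicate 1 of both groups, beside 24.5% of all probe sets. They include all 3 sets of Cxcl1, which are not independent, and that of Cxcl5, within the background range. By the brightest set per gene, 4 of the 8 chemokine genes were higher in replicate 1 of both groups, beside 24.5% of all genes. The part of feeder cells in the chemokine levels was not tested.

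**Figure D4:**
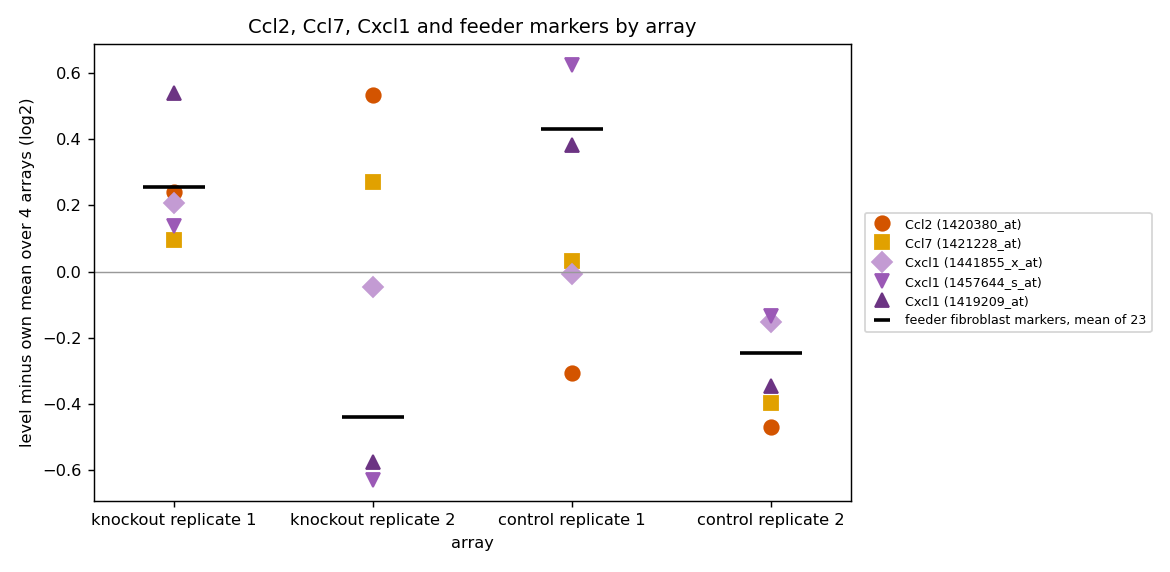
Level on each array minus the same probe set's mean over the 4 arrays (log2) for Ccl2, Ccl7 and the 3 Cxcl1 probe sets, with the mean of 23 feeder fibroblast markers as black bars. The feeder markers and 2 Cxcl1 sets are high in replicate 1 and low in replicate 2 of both groups, whereas Ccl2 is high on both knockout arrays and low on both control arrays.

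Other cells that make chemokines were examined through markers of leukocytes and endothelium. Of 10 leukocyte markers, 5 lay above the background range on every array. In opposite directions, 2 of the 10 passed, beside 4.14% of all genes. Cd68, a lysosomal protein of macrophages, was higher by 1.15 ± 0.23 (SE, adjusted p = 0.0453). Laptm5, a lysosomal membrane protein, was lower by -0.92 ± 0.16 (SE, adjusted p = 0.0383). Cd68 was at 6.62 and 6.98 in the knockout and at 5.33 and 5.96 in the control. Among all probe sets tested singly, its adjusted p was 0.0766, and that of the called Laptm5 set was 0.0618. The other 2 Laptm5 sets that were above background on every array differed by -0.24, without overlap, and by 0.04. Ptprc, the defining CD45 gene of leukocytes, lay within the background range on every array, between 3.41 and 3.60. Neither gene was called with any 1 array left out or with the probe sets of each gene averaged. Over the 10 markers, 1 was higher and 4 were lower in the knockout without overlap, while 52.3% of all genes had no overlap. The mean of the 10 markers was 5.23 on both knockout arrays and 5.20 and 5.45 on the control arrays. None of 7 endothelial markers passed, beside 4.14% of all genes, with 2 at an unadjusted p under 0.05. Tek, an angiopoietin receptor, showed the largest difference (-0.90 ± 0.20, SE, adjusted p = 0.0541). The mean level of the 7 was 4.49 on each knockout array and 4.46 and 4.53 on the control arrays.

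Among the chemokine receptors, 1 of 21 measured genes passed, beside 4.14% of all genes. This was Ackr3, an atypical receptor that binds and clears Cxcl12, at 7.50 and 7.66 in the knockout and at 8.26 and 8.40 in the control. Both knockout arrays were lower, by -0.75 ± 0.14 (SE, adjusted p = 0.0426), and Ackr3 has a single probe set, which did not pass among all probe sets tested singly (adjusted p = 0.0641). It was not called with any 1 array left out or with an intensity trend in the fit. The signalling receptor Cxcr4 was at 4.45 and 4.30 in the knockout and at 4.005 and 5.03 in the control, so only 1 control array rose above the background range. Ccr2, the receptor of Ccl2 and Ccl7, lay within that range on every array, as did Cxcr2, the receptor of Cxcl1 and Cxcl5, and Cx3cr1, the receptor of Cx3cl1. Cxcr3, the receptor of Cxcl10, was between 5.44 and 5.67 and differed by 0.11 ± 0.14 (SE, adjusted p = 0.705). Over the receptors as a group, 13 of 21 lay within the background range on every array.

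Among 27 other measured chemokine ligands none passed, beside 4.14% of all genes, with 2 at an unadjusted p under 0.05. Of the 27, 13 lay within the background range on every array. Ccl27a, a skin-homing chemokine, had the largest difference, 0.85 ± 0.20 (SE, adjusted p = 0.0596), with 5.23 and 5.82 in the knockout against 4.70 and 4.66 in the control, where it lay within the background range. The median difference of these 27 was 0.02, with a median size of 0.09, beside 0.22 for the 8 genes and 0.18 over all genes. These sizes are not a like comparison. The 8 genes were chosen with earlier results of these data known, and only 1 of them lay within the background range on every array.

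The inducers and processors of chemokines were covered by 3 further lists. Of 22 measured genes of NF-kB and inflammatory signalling, 1 was higher and none was lower, beside 1.98% and 2.17% of all genes. This was Nfkbib, an inhibitor of NF-kB, at 8.45 and 8.58 in the knockout and at 7.55 and 7.79 in the control (0.85 ± 0.15, SE, adjusted p = 0.0386). Among all probe sets tested singly, its adjusted p was 0.0618. It was not called with any 1 array left out, nor when its probe sets were averaged, the other of which lay within the background range. Of 19 interferon response genes none passed, with 3 at an unadjusted p under 0.05, and Ifit2 had the largest difference (-0.92 ± 0.22, SE, adjusted p = 0.0587). Of 8 chemokine-processing proteases none passed, with 2 at an unadjusted p under 0.05. The largest difference there was that of Adam10, which sheds Cx3cl1 from the cell surface, at 8.51 and 8.07 in the knockout and at 9.08 and 8.90 in the control (-0.70 ± 0.18, SE, adjusted p = 0.0705).

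The genes with the most similar profiles over the 4 arrays were sought for Ccl2 and Cxcl1, the chemokines with a mean of 6 or more, by Euclidean distance between levels centred on each gene's own mean. Among 9483 candidates, Dppa3, a germ cell and pluripotency gene, was nearest to Ccl2 at a distance of 0.067 log2 units, followed by Mrps21, a mitochondrial ribosomal protein gene, at 0.082 and Gm5802 at 0.086. For the brightest Cxcl1 set the nearest were Ddx21, an RNA helicase gene, at 0.0065, Snx3, a sorting nexin gene, at 0.038 and Gipc2 at 0.040. With 4 arrays, such likeness is a description of these samples only.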

How the data were processed

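The authors' deposited table holds log2 expression per probe set for 4 arrays. Per the submitters' processing notes, RMA (background correction, quantile normalization, summary of probes) and limma were used, without versions. A shift common to most genes would be lost by RMA. No genome build is named. Groups and replicate numbers came from the titles. Symbols came from the platform annotation in GEO, checked by gene ID against RefSeq (34754 matched, 0 changed). Of 34945 non-control probe sets with 1 symbol, the brightest per gene was kept. The comparison used limma 3.58.1 (lmFit, eBayes) in R 4.3.3 over all 4 arrays, without covariates, with 2 residual and 5.31 prior degrees of freedom, and two-sided p-values. ± is the standard error (SE) of a difference or the SD of 2 arrays. The code was tested on simulated data.

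The member genes and the gene lists (167 entries, 10 not analysed here) were chosen with earlier results of these data known. Named were the members and their receptors, up to 4 genes per list past the threshold with the largest change, or else the 1 with the largest change, Snai1, Actb, Gapdh and the nearest profiles. Ccl8, Ccl11, Ccl12, Ppbp, Pf4, Cxcl2, Cxcl3, Cxcl15 and Ptprc were added after their values were seen. Alternatives covered moderation, normalization, dim genes, probe set choice, a replicate block, a trend with gene span (known for 18145 genes) and mean level and each array left out.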

Additional observations from a re-analysis of the deposited data

How the results depend on the processing

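The number of genes called, 754, was 481 with an intensity trend, 1224 with a mean of at least 6 required, 321 with the probe sets of each gene averaged, 246 with probe sets tested singly, and 4 to 50 with 1 array left out (4 without control replicate 2). The lone array left in a group was assumed to vary like the remaining pair. The number of probe sets called, 246, was 588 after a further quantile normalization and 0 to 173 with 1 array left out.

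Of the 2 chemokine genes called, 1 remained with an intensity trend (Cxcl5), with the trend with gene span and mean level removed (Cxcl5) and with a mean of 5 or 6 or more (Ccl2; Cxcl5 was too dim to be tested), 0 with probe sets averaged, and 0 with any 1 array left out. Ccl2 no longer passed with an intensity trend (0.77, adjusted p = 0.0592), with probe sets averaged (0.77, 0.0541) or with the span and level trend removed (0.56, 0.0895), and ranged from 0.63 to 0.92 with 1 array left out. Cxcl5 no longer passed with probe sets averaged (-0.68, adjusted p = 0.0538), and ranged from -0.79 to -0.57 with 1 array left out. Averaging left the values of both genes, which have 1 probe set each, unchanged and moved only their errors and adjusted p. The sign of Cxcl1 turned with probe sets averaged (-0.12) and with the span and level trend removed (-0.046). That of Cx3cl1 turned with probe sets averaged (0.068) and without knockout replicate 2 (0.10, in a range from -0.26). Ccl7, Cxcl12, Ccl5 and Cxcl10 kept their signs and did not pass in any setting run; the filters on dim genes left some of them untested.

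Same-numbered arrays deviated together over genes (r = 0.29 across 18193 genes, which are not independent replicates), but the labels do not say what the numbers mark, and 2 pairs cannot settle it. With the replicate block, 3092 genes and 1536 probe sets passed. Ccl2 (0.77) and Cxcl5 (-0.68) still passed among genes, 0 of the 15 chemokine probe sets passed singly, and 1457644_s_at of Cxcl1 differed by -0.49 ± 0.14 (SE, adjusted p = 0.0967). The block called 3 other ligands, 2 receptors, 2 proteases, 3 NF-kB genes, 2 interferon genes, 9 feeder markers (1 higher, 8 lower) and 2 endothelial markers.

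In the lists, a mean of 5 or more gave 1 other ligand, 1 interferon gene, 1 feeder marker and 1 endothelial marker. A mean of 6 or more gave 1 other ligand, 1 protease, 1 interferon gene and 1 feeder marker. Over all genes, the same filters called 967 with a mean of 5 or more and 1224 of 9484 with a mean of 6 or more. The list sizes left after these filters are not given here. A further quantile normalization gave 2 receptors and 1 interferon gene, median centring 1 feeder marker, and an intensity trend 0 receptors and 1 endothelial marker. Averaged probe sets gave 0 NF-kB genes and 0 leukocyte markers, and removal of the span and level trend 1 leukocyte marker. Over all genes, 871 were called after the further quantile normalization, 786 with median centring and 481 with the intensity trend. With averaged probe sets 321 were called, and 587 with the span and level trend removed. With 1 array left out, the lists of receptors, NF-kB genes and leukocyte markers had 0 calls and ES cell markers 0 to 1. The cause of these changes was not tested. Most chemokine and receptor probe sets lay near or within background, which limits what the arrays can show for them.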
